A study of Mus musculus with 3 samples.

Results

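Complement is a cascade of plasma and cell-surface proteins that tags targets for removal and can perforate membranes. The genes described here are 8 components and regulators of it, C1ra, C1s1, C3, C4b, Cfb, Serping1, Cd55 and Cd59a, followed across 3 cultured lines of mouse forestomach fibroblasts. They were chosen by name, with their measured levels and the differences between these arrays already known, so every value below is a description and none is a test. Of the 8, 7 had a value among 19938 named genes, each from 1 probe set. C3, the central component of the cascade, had no probe set with its symbol in the annotation used and was not analysed here.

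The forestomach is the squamous-lined part of the rodent stomach, and the cells carried FSP1, the S100a4 product by which fibroblasts are often selected. One line was wild type. Another had a conditional knockout (cKO) of Tgfbr2, the gene of the type II TGF-beta receptor, and the last had conditional knockouts of Tgfbr2 and of Smad4, whose product carries TGF-beta and BMP signals to the nucleus. Normal forestomach was the source of both the Tgfbr2/Smad4 cKO and the wild-type cells, whereas the Tgfbr2 cKO cells came out of a squamous cell carcinoma of that organ, so genotype and tissue of origin cannot be told apart in that line. The donor mice were C57BL6 and BALBc in mixture and of both sexes. All cultures were at passage 4 to 6 in medium with 10% serum, and 1 array was made per line. The labels give no driver of the knockouts, no age and no number of mice per line.

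Separate routes start the cascade. In the classical route the protease C1r activates the protease C1s inside the C1 complex, and C1s then cuts C4 and C2 to build an enzyme that cleaves C3. In the alternative route factor B, the product of Cfb, supplies the protease of a second C3-cleaving enzyme. C1 inhibitor, encoded by Serping1, traps C1r and C1s, and the membrane proteins CD55 and CD59 protect the cell that bears them, CD55 by taking the C3-cleaving enzymes apart and CD59 by blocking the terminal pore. The liver makes most plasma complement, and fibroblasts are known as a local source of several components.

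With 1 array per line there is no replicate spread, no error and no p-value, and every value is only as precise as a single array allows. A difference is therefore set beside a size rule of 2-fold, which is 1 on the log2 scale, and beside the share of all genes past that rule. Levels are log2 signals, and because each gene has its own probes, levels are compared between arrays and not between genes. The median signal and the levels of some marker genes serve only as rough marks of low signal. The median signal of each array was 6.63, and 11808 genes reached 6.63 in at least 1 array and were counted. The labels could not be checked on the targeted genes. Throughout, values given in threes run from wild type through Tgfbr2 cKO to Tgfbr2/Smad4 cKO. Tgfbr2 read 10.25, 10.25 and 10.29 and Smad4 11.06, 11.06 and 11.04, but their values summarise probes from exons along the whole transcript, removed or not. Xist, expressed from the inactive X, read 5.33, 5.35 and 9.44, and the Y-linked gene Eif2s3y 10.12, 10.00 and 5.01, so the Tgfbr2/Smad4 cKO line had a female pattern and the other lines a male one. Sex, genotype, line and any difference in strain mixture between the lines cannot be told apart in any comparison with that array.

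Among the fibroblasts, the components and regulators of complement differed mainly in the Tgfbr2/Smad4 cKO line. Against wild type, 5 of the 7 measured genes were at least 2-fold higher there (C1ra, C1s1, Cfb, Serping1 and Cd59a), Cd55 alone was lower by that much at the deposited levels, and C4b was 1.64-fold higher. Of all 11808 genes, 1.22% lay past 2-fold on the higher side and 2.18% on the lower side in that comparison, shares from which nothing is read here because these same differences were known when the genes were chosen. In the Tgfbr2 cKO line 0 of 7 were past 2-fold from wild type in either direction. By that rule 0.0254% of all genes were higher and 0.00847% lower, so nothing is read from that count. The largest differences there were 0.40 for C4b, -0.30 for Cd55 and 0.26 for Serping1, where the SD over genes was 0.0951. C4b and Serping1 stood at ranks 67 and 181 from the top and Cd55 at rank 122 from the bottom. A difference in RNA extracted from a whole culture does not separate fewer cells of a kind from less RNA per cell.

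**Figure D1:**
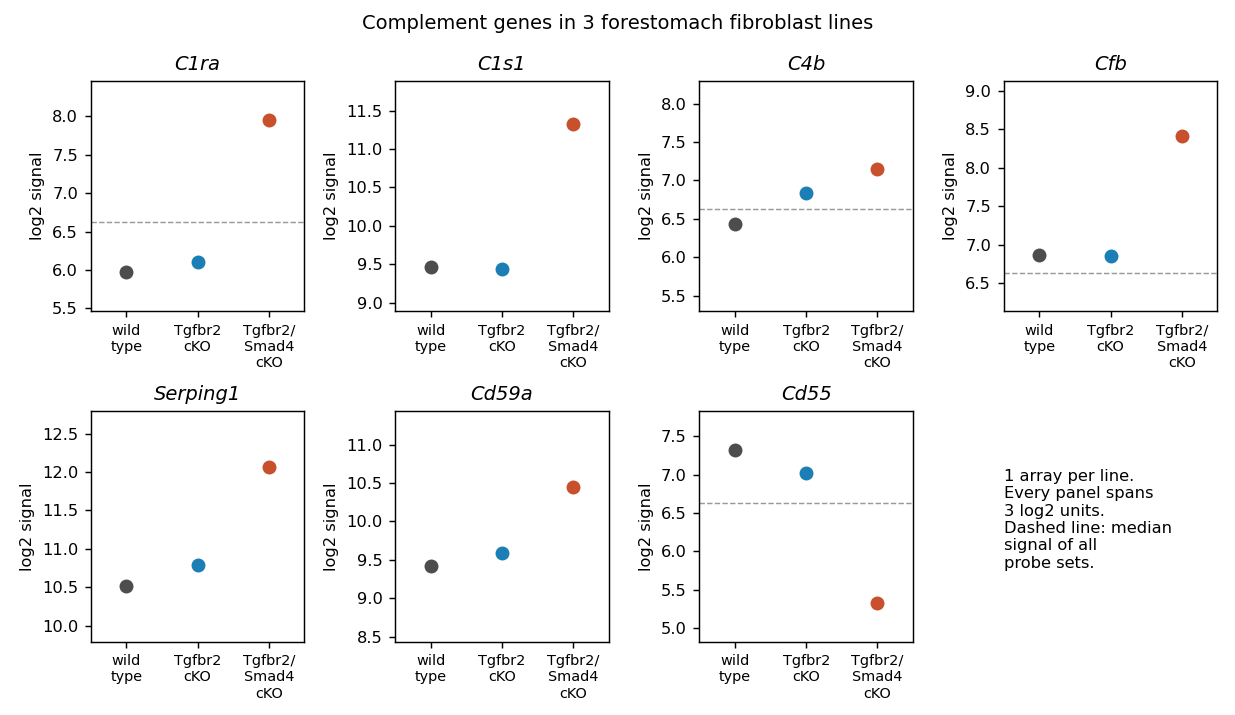
Log2 signal (vertical axes, each spanning 3 log2 units) of 7 complement genes, with wild type in grey, Tgfbr2 cKO in blue and Tgfbr2/Smad4 cKO in orange, 1 point per array, with the median signal of 6.63 as a dashed line where it falls in the panel. The Tgfbr2/Smad4 cKO point is the highest in 6 panels and the lowest in the Cd55 panel, at 5.33.

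Promoter sequence was read first for the genes that lie beside each other or differed in opposite directions. RefSeq windows of assembly GRCm38.p6 were held for 4 of the 7 measured genes, C1ra, C1s1, Cd59a and Cd55, and the 250 bases before the start of transcription are shown for each. C1ra and C1s1 are shown because they are chromosomal neighbours that were higher together, Cd59a as a higher surface regulator and Cd55 as the lower one. C1s1 has a pair of start sites 38 bases apart, of which the upstream one is shown. The C1ra window is chr6:124512371-124512620 on the plus strand, the C1s1 window chr6:124542360-124542609 on the minus strand, the Cd59a window chr2:104095551-104095800 on the plus strand and the Cd55 window chr1:130462745-130462994 on the minus strand. Capitals mark matches to the motifs named after them.
C1ra: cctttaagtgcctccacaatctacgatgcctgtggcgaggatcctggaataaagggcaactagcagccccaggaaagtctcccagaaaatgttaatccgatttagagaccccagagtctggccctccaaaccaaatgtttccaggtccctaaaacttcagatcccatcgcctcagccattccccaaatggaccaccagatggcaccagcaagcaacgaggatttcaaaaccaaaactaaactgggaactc
C1s1: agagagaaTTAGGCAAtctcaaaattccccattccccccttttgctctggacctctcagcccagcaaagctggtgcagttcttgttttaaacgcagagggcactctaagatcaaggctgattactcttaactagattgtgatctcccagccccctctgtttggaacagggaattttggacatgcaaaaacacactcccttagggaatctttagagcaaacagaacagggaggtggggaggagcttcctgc
Cd59a: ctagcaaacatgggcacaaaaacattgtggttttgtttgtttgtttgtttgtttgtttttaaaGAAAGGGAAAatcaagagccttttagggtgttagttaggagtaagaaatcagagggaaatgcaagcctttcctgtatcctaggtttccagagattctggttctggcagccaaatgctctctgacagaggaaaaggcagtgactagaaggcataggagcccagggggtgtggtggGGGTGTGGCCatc
Cd55: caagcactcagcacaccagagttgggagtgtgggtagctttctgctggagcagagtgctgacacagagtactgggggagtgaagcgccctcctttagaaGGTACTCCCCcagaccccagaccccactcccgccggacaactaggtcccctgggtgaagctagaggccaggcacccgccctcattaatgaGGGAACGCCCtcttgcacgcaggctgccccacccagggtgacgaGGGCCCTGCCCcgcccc

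The windows were searched on both strands for 7 motifs. These were a kappaB-like motif (GGG, any 5 bases, CC), the STAT motif TTCNNNGAA, the interferon-stimulated response element (GAAA, any 2 bases, GAAA), the C/EBP-like motif TTGCNNAA, the AP-1 motif TGANTCA and the SMAD motifs GTCTAGAC and CAGACA. The kappaB-like motif matched 4 times in the Cd55 window, with 2 of the matches overlapping on opposite strands, and 1 time in the Cd59a window, and 45.8% of all 32851 windows of this length hold it. The Cd59a window also held 1 interferon-stimulated response element, GAAAGGGAAA, whose first base lies 187 bases before the start and which 2.98% of windows hold. The C1s1 window held 1 C/EBP-like match, which reads TTAGGCAA along the gene, from 242 bases before the start, a motif found in 9.56% of windows. The downstream C1s1 start had 1 kappaB-like match, GGCCACTCCC, and no C/EBP-like one. None of the 7 motifs matched in the C1ra window. The STAT, AP-1, GTCTAGAC and CAGACA motifs, held by 7.02%, 6.75%, 0.167% and 17.1% of windows, matched in none of the windows shown. GC content was 49.6% in the C1ra window, 48% in the C1s1 window, 44.8% in the Cd59a window and 64% in the Cd55 window. A match describes letters and is no evidence of binding.

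Among the higher genes, the classical pathway proteases C1ra and C1s1 had the largest differences. C1ra, which encodes the protease that starts the C1 complex, had log2 levels of 5.97 in wild type, 6.11 in Tgfbr2 cKO and 7.95 in Tgfbr2/Smad4 cKO. Its level was under the median signal in the first 2 arrays and over it in the third, a measured difference of 1.98 to wild type, or 3.94-fold. Both low levels lie among those of 6 endothelial markers, 4.41 to 6.18 in every array, and were not shown to be above background. Those markers have their own probes, so they do not measure the background of C1ra itself. With levels under 6.18 raised to it the difference was 1.76, and with levels under the median signal raised to that, 1.31. Because C1ra met the level filter only through the array in which it was high, it could enter the count only by differing. C1s1, the protease that C1r activates, read 9.46, 9.44 and 11.33. The wild-type and Tgfbr2 cKO arrays were nearly level for C1s1, and the Tgfbr2/Smad4 cKO array was 1.86 higher than wild type, or 3.63-fold, at rank 31 of 11808 genes from the top.

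A further probe set, which the annotation lists for both C1ra and its near copy C1rb and which was assigned to neither gene, read 8.82, 8.81 and 11.16. That is 2.35 higher in Tgfbr2/Smad4 cKO than in wild type, or 5.09-fold, and -0.01 between Tgfbr2 cKO and wild type. C1ra and C1rb cannot be separated by it, and probes of the C1ra probe set could also bind C1rb RNA. The copy of C1s1, C1s2, had levels of 6.62, 6.62 and 7.43, a difference of 0.80, and C1rl, a C1r-like protease gene, had 7.71, 7.73 and 8.43, a difference of 0.73.

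C4b encodes complement C4, the first substrate of C1s. Its levels were 6.44 in wild type, 6.84 in Tgfbr2 cKO and 7.15 in Tgfbr2/Smad4 cKO. At the deposited levels, C4b was the member in which the Tgfbr2 cKO array stood farthest from wild type. The difference was 0.40 or 1.32-fold higher, at rank 67 from the top in that comparison. The Tgfbr2/Smad4 cKO array was 0.71 higher than wild type, or 1.64-fold, at rank 273, and 0.31 higher than the Tgfbr2 cKO array. C4b met the level filter only in the 2 knockout arrays. With levels under the median signal raised to it, C4b was 0.205 higher than wild type in Tgfbr2 cKO and 0.516 higher in Tgfbr2/Smad4 cKO. Under that floor Cd55, at -0.295, stood farther from wild type in Tgfbr2 cKO than C4b. Its near copy C4a read 6.32 in each array. C2, whose product is cut by C1s beside C4, read 6.48, 6.48 and 6.68.

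In the alternative pathway, Cfb had levels of 6.86, 6.85 and 8.41. Wild type and Tgfbr2 cKO differed by -0.01 and lay just over the median signal, and Tgfbr2/Smad4 cKO was 1.55 higher than wild type, or 2.92-fold, at rank 58. Cfp, which encodes properdin, the stabiliser of the same enzyme, read 6.65, 6.65 and 6.63. Factor D, the protease that activates factor B, is encoded by Cfd and was not analysed here.

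Among regulators, Serping1 had levels of 10.52 in wild type, 10.79 in Tgfbr2 cKO and 12.06 in Tgfbr2/Smad4 cKO. The levels were thus in that order, with steps of 0.26 and 1.27. Serping1 was 2.90-fold higher in Tgfbr2/Smad4 cKO than in wild type, at rank 61, so the inhibitor was higher in the same array as its targets C1ra and C1s1. Cd59a, the GPI-anchored inhibitor of the terminal pore, had levels of 9.42, 9.59 and 10.45. It was 1.03 higher in Tgfbr2/Smad4 cKO than in wild type, or 2.04-fold, just past the size rule, and fell short of it with 32 added to each linear signal, at 0.999. Its near copy Cd59b read 6.13, 6.18 and 6.79, a difference of 0.66 in the same direction.

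Cd55, the decay-accelerating factor gene, went the other way. Its levels were 7.32 in wild type, 7.02 in Tgfbr2 cKO and 5.33 in Tgfbr2/Smad4 cKO. The Tgfbr2/Smad4 cKO level was under the median signal, and the measured log2 difference to wild type was -1.98, or 3.96-fold lower. That low level also lies among those of the endothelial markers, so the size of the difference depends on where background is set. It was -1.13 with levels under 6.18 raised to it and -0.69, short of 2-fold, with levels under the median signal raised to that. The Tgfbr2 cKO array was -0.30 from wild type, at rank 122 from the bottom in that comparison. The copy Cd55b read 4.38 in each array. Thus the 2 measured members that protect the cell surface stood on opposite sides, Cd59a at 1.03 and Cd55 at -1.98. The remaining membrane regulators had smaller differences. Cr1l, which encodes the rodent C3 regulator Crry, read 9.60, 9.60 and 9.72, and Cd46 read 4.57, 4.57 and 4.75.

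**Figure D2:**
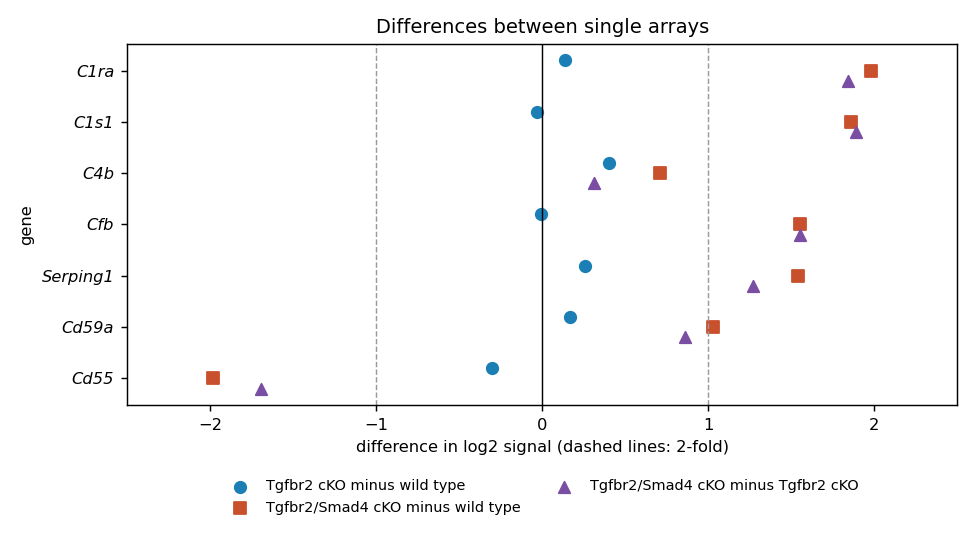
Differences in log2 signal (horizontal axis) of 7 complement genes for the 3 pairs of arrays, 1 point per gene and pair, with dashed lines at 2-fold. The circles for Tgfbr2 cKO minus wild type lie between -0.30 and 0.40, while the squares for Tgfbr2/Smad4 cKO minus wild type reach 1.98 for C1ra and -1.98 for Cd55.

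Against the Tgfbr2 cKO array, the Tgfbr2/Smad4 cKO array was at least 2-fold higher in 4 of the 7 genes, C1s1 at 1.89, C1ra at 1.84, Cfb at 1.55 and Serping1 at 1.27. Cd55 was at least 2-fold lower, at -1.69, but at -0.84 with the floor of 6.18 and -0.39 with that of the median signal, and Cd59a and C4b were at 0.86 and 0.31. The shares of all genes past 2-fold here were 1.32% on the higher and 2.25% on the lower side. It shares the Tgfbr2/Smad4 cKO array with the comparison to wild type, so its values are no second reading of that line. The Tgfbr2 cKO minus wild type values of the 7 genes were, from the highest, 0.40 for C4b, 0.26 for Serping1, 0.17 for Cd59a, 0.14 for C1ra, -0.01 for Cfb, -0.03 for C1s1 and -0.30 for Cd55. In that pair 55.1% of genes had exactly equal values and the differences had an SD of 0.0951 over genes, against 36.7% and 0.39 for Tgfbr2/Smad4 cKO minus wild type.

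The wider complement system was followed with 49 further genes, of which 45 had a value and 12 reached the level filter. None of the 12 differed 2-fold in any comparison. Between Tgfbr2/Smad4 cKO and wild type, 3 of the 12 were at least 1.5-fold higher, C1s2, C1rl and Cd59b, and 0 were at least 1.5-fold lower, beside 3.35% and 5.09% of all genes. C1s2 and Cd59b reached the level filter only in the Tgfbr2/Smad4 cKO array, so they could enter the 12 only by being higher there, and nothing is read from the count. Each of these 3 belongs to the same gene cluster as a chosen gene. The median difference of the 12 was 0.04, and that of all genes 0. Of the 45, 27 had the same value in the Tgfbr2/Smad4 cKO and wild-type arrays.

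By role, the recognition subunits of C1 had low or level values. C1qa read 6.69 in each array, C1qb 5.98, 6.34 and 5.60, and C1qc 6.34, 6.34 and 6.20, where C1ra and C1s1 differed by 1.98 and 1.86 between Tgfbr2/Smad4 cKO and wild type. Macrophages are the main known source of these subunits. In the lectin pathway, Masp1, a protease related to C1r and C1s, had levels of 10.91, 10.99 and 10.38, a difference of -0.53 between Tgfbr2/Smad4 cKO and wild type. Fcnb, a ficolin gene, read 5.87, 5.87 and 6.02. In the terminal pathway, which builds the pore, 0 of 7 genes reached the median signal in any array, and 6 of the 7 had one value in all 3. The largest difference there was 0.07, for C8g. Of the receptor genes 0 of 9 reached the median signal, C5ar1, the receptor for the C5a fragment, with 5.43, 5.69 and 5.35 and Cd93 with 5.43, 5.56 and 5.39. Of the secreted regulators Clu, for clusterin, alone reached it, with 7.48, 7.52 and 7.44.

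**Figure D3:**
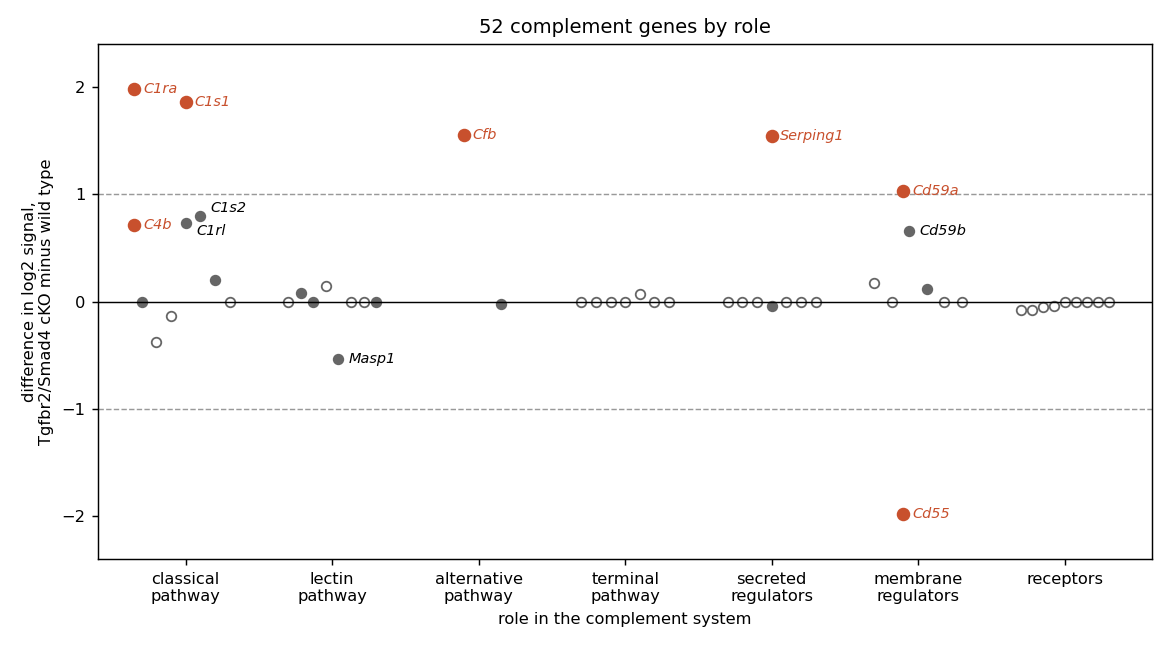
Difference in log2 signal between the Tgfbr2/Smad4 cKO and wild-type arrays (vertical axis) for 52 complement genes grouped by role (horizontal axis), with the 7 chosen genes in orange, other genes in grey and genes under the median signal in every array as open circles. Dashed lines mark 2-fold, and the grey points nearest to them are C1s2 at 0.80, C1rl at 0.73 and Cd59b at 0.66.

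In RefSeq order C1rl, C1ra, C1s1, C1rb and C1s2 follow one another on chromosome 6, and the 4 with a value were all at least 1.5-fold higher in Tgfbr2/Smad4 cKO than in wild type. Of those 4, C1ra and C1s1 were chosen with this difference known, and C1ra and C1s2 met the level filter in that array alone. The genes on either side, Clstn3 and Lpcat3, differed by 0 and 0.08. On chromosome 17, C4b and Cfb lie in the class III region of the major histocompatibility complex with C2 directly after Cfb. There C4b and Cfb differed by 0.71 and 1.55, C2 by 0.20, and the genes from Stk19 to Nelfe between them by at most 0.12. Cd59b and Cd59a are neighbours on chromosome 2, where Fbxo3 before them differed by 0.11. Cd55 on chromosome 1 lies between Cd55b and Zp3r, both at 0, with C4bp, the C4-binding protein gene, next after Zp3r and also at 0. Among the 5 protein-coding genes on each side of the 7 measured genes, 34 outside the complement lists reached the level filter. Beside 1.22% of all genes at least 2-fold higher and 2.18% lower, 0 of the 34 were higher and 1 was lower. That gene was Mcm6, a replication helicase subunit gene 5 genes before Cd55, with levels of 9.91, 9.81 and 7.95. Next to Serping1, Ube2l6, which encodes an enzyme of ISG15 conjugation, read 7.96, 7.96 and 8.58, and Slc43a1, a transporter gene 4 genes after Serping1, read 7.95, 8.01 and 7.22. Ube2l6 was the 1 neighbour at least 1.5-fold higher, and Mcm6 and Slc43a1 were the 2 at least 1.5-fold lower. The shares of all genes past 1.5-fold were 3.35% on the higher side and 5.09% on the lower.

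**Figure D4:**
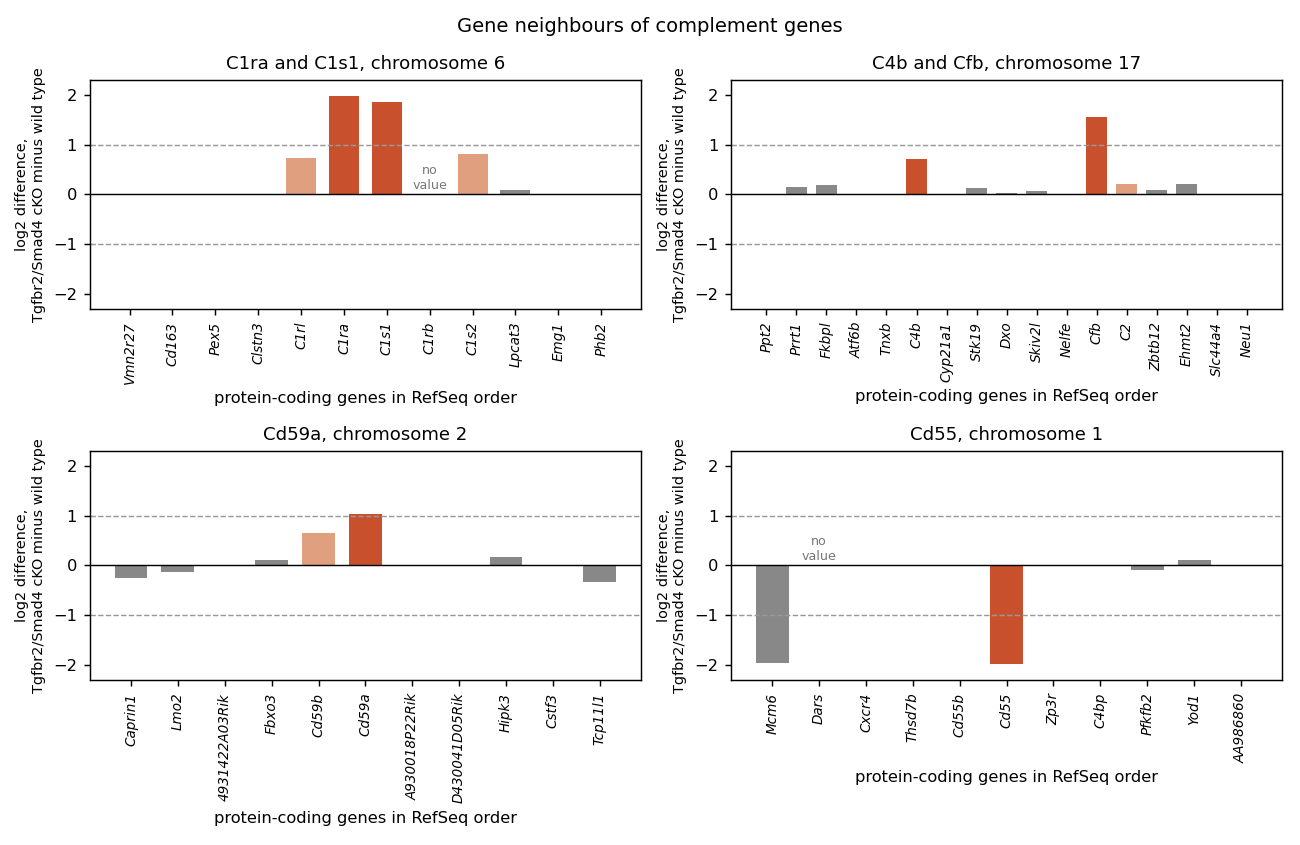
Difference in log2 signal between the Tgfbr2/Smad4 cKO and wild-type arrays (vertical axes) for protein-coding genes in RefSeq order around C1ra and C1s1, C4b and Cfb, Cd59a, and Cd55, with the chosen genes in dark orange, other complement genes in light orange and other genes in grey. Bars past the dashed 2-fold lines belong to C1ra, C1s1, Cfb, Cd59a, Cd55 and, in grey, Mcm6 at -1.95.

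For the 6 members past 2-fold in some comparison, which leaves out C4b, the genes with the closest pattern were found by the larger of the 2 gaps in their differences to wild type, over 3 arrays, which is few for any likeness. For C1ra they were Srpx, Gem and C1s1, at distances of 0.098, 0.16 and 0.17 on the log2 scale. For C1s1 they were Zfp36l1, the collagen VI gene Col6a1 and Abca8a, at 0.033, 0.048 and 0.056. Cfb lay closest to Mamdc2, Cd109 and Rgs6, at 0.0078, 0.028 and 0.071. Serping1 lay closest to Kif26b, the PI3-kinase subunit gene Pik3r1 and Slc24a3, at 0.075, 0.11 and 0.11. Cd59a lay closest to the cadherin gene Fat4, the ligand gene Tgfb2 and Kdm6a, at 0.033, 0.04 and 0.051. For Cd55 they were Mki67, the Ki-67 gene, Cenpe, a kinetochore motor gene, and Depdc1a, at 0.042, 0.062 and 0.069. Mki67 had levels of 9.65, 9.34 and 7.70, beside 7.32, 7.02 and 5.33 for Cd55. The likeness of Cd55 rests on its difference of -1.98 to wild type, beside -1.94 for Mki67. With the 2 floors given above for Cd55 that difference was -1.13 or -0.69, so the likeness depends on where background is set. The C1ra difference also depends on it, at 1.76 or 1.31 with those floors.

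Complement genes are known to be induced by interferons, by IL-6 through STAT3 and C/EBP factors, and by NF-kB. Of 33 genes of these inducing pathways 25 reached the filter. Between Tgfbr2/Smad4 cKO and wild type 1 of the 25 differed 2-fold, beside 1.22% of all genes higher and 2.18% lower. The 1 gene was Il6, with levels of 9.17, 9.88 and 6.89, lowest in Tgfbr2/Smad4 cKO. Over all 25, 11 were above wild type in that array, 9 below and 5 equal. The highest difference was that of the IL-6 receptor gene Il6ra, with 8.12, 8.12 and 8.65, and the lowest after Il6 that of the kinase gene Jak1, with 11.54, 11.67 and 11.19. The related receptor genes Lifr, Osmr and Il6st differed by 0.47, 0.41 and 0.23, and Stat3 by 0. Any part of these genes in the complement values was not tested. Of 15 interferon response genes at the filter, 1 was at least 2-fold higher, Ifi202b, with 4.33, 4.35 and 7.93. Ifi202b is among the 15 only through the array in which it was high. The same shares of all genes stand beside these 15 and the acute-phase genes, and nothing is read from these counts. Of 3 acute-phase genes at the filter, the protease inhibitor gene Serpina3n was higher, with 8.98, 8.66 and 11.80, and Ptx3, a pentraxin gene whose product binds C1q, was lower, with 9.84, 9.66 and 8.73.

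Markers of the cell types a fibroblast culture could hold were set beside these values. All 10 fibroblast markers were at or over the median signal in both knockout arrays and 9 in wild type, and S100a4, the gene of the protein used to select the cells, read 13.18, 13.16 and 12.71. Between Tgfbr2/Smad4 cKO and wild type, 3 of 10 fibroblast markers were at least 2-fold higher, Pdgfra at 1.40, Lum at 1.21 and Fap at 1.09. Fap was under the median signal in wild type, at 6.39, and over it only in the knockout arrays, where it was higher. Beside the marker counts for this pair of arrays stand shares of 1.22% upward and 2.18% downward among the 11808 counted genes. The marker lists were chosen with earlier results known, so nothing is read from their counts. All 6 smooth muscle markers were lower, 4 of them at least 2-fold, and their summed linear signal was 73249, 75763 and 41655. Of 5 mesothelial markers at the filter 3 were at least 2-fold lower, with sums over 6 genes of 2249, 1695 and 802. Upk1b read 9.70, 8.87 and 6.21, and without it those sums were 1418, 1228 and 728. In Tgfbr2 cKO 4 of the 5 were already lower than wild type and 1 was higher. Upk3b stood at -1.07 there, the 1 gene of all 11808 at least 2-fold lower in that comparison. The sums were 1175, 1279 and 773 over 9 epithelial markers and 1283, 1671 and 1037 over 11 leukocyte and macrophage markers. Most of the fall in these last sums lay in a single gene of each list. The keratin gene Krt19, which the mesothelial list also holds, read 8.82, 9.25 and 6.93, and without it the epithelial sums were 722, 671 and 651. The lysozyme gene Lyz2 read 8.70, 9.52 and 7.75, and without it the leukocyte and macrophage sums were 867, 939 and 822. Krt18 read 7.10, 6.80 and 6.49 and Cd68 7.01, 7.51 and 6.76. In each array 5 of 11 leukocyte and macrophage markers were at or over the median signal, among them Csf1r at 6.81 and Cd14 at 7.66. Of the 9 epithelial markers 4, 4 and 3 were, among them Cldn4 at 6.89 in each array. The leukocyte gene Ptprc and the macrophage gene Adgre1 read 5.23 and 4.87 in each array, under the median signal. The epithelial genes Epcam and Cdh1 and 6 of 6 endothelial markers were also under it. The part of these marker differences in the complement values was not tested.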

How the data were processed

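Per the labels' protocols, total RNA of 3 mouse forestomach fibroblast lines was labelled with biotin and read on 1 Affymetrix Mouse Gene 1.0 ST array each. The deposited log2 signals, 1 per probe set for 35556 probe sets, are at transcript level per the labels. That they are log2 was inferred from their range of 2.82 to 15.6, and the labels name no software, normalization or genome build. Array medians differed by at most 0.00412, so values were used as deposited. Exactly equal values are common in this table and can hide a small difference.

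The platform annotation gave 21789 probe sets 1 symbol, 1621 several and 12146 none. Symbols of 21698 were checked through the gene identifier against RefSeq (GRCm38.p6), which also gave gene order and promoter windows. Probe sets of a gene were averaged, giving 19938 genes. Those whose highest value reached the median of all values, 6.63, were counted. With 1 array per group no test was made. The members and gene lists were chosen with earlier results of these data known. Named were all members, list genes at least 2-fold different or, with none, the 2 most different, copies and neighbours of members, and the 3 closest patterns. Genes named outside that rule were chosen after their values were seen. Alternatives were 3 scalings, 2 level filters, 2 rules for probe sets, an offset of 32, 2 floors added after the data were seen, and size rules of 1.5-fold and 3-fold. The call steps were tested on simulated data. Analyses used Python 3.11.15, numpy 2.4.6, pandas 2.3.3, matplotlib 3.10.9, R 4.3.3 and limma 3.58.1.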

Additional observations from a re-analysis of the deposited data

How the results depend on the processing

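Each member has 1 probe set, so the 2 level filters and the 2 probe set rules could not move a member's difference. Under the 3 scalings and the offset of 32, 83 of 84 member differences stayed on the same side of 2-fold, and none past 2-fold changed sign. The exception was Cd59a in Tgfbr2/Smad4 cKO minus wild type, 0.999 with 32 added to each linear signal. That offset also brought C1ra, Cfb and Cd55, which were dim in at least 1 array, to 1.56, 1.32 and -1.41. With 2 floors added after the data were seen, to which lower levels were raised, 39 of 42 stayed on the same side. The exceptions were Cd55 differences, against wild type -0.69 with a floor at the median signal, and against Tgfbr2 cKO -0.39 with that floor and -0.84 with one at the highest endothelial marker, 6.18, so the members at least 2-fold lower numbered 0 in those cases. With the level filter at the 75th percentile, 8.85, the members at least 2-fold higher numbered 3 against wild type and 2 against Tgfbr2 cKO, with 0 lower in both, because C1ra, Cfb and Cd55 left the count. With a size rule of 3-fold they numbered 2 and 2. With 1.5-fold, the other complement genes past the rule numbered 3 higher against wild type, and 3 higher and 1 lower against Tgfbr2 cKO. Over all genes, Tgfbr2/Smad4 cKO minus wild type had 144 higher and 257 lower at 2-fold, 396 and 601 at 1.5-fold, 55 and 96 at 3-fold, and 147 lower with the 75th percentile filter. Tgfbr2/Smad4 cKO minus Tgfbr2 cKO had 156 and 266, 401 and 663, 61 and 100, and 156 lower. Tgfbr2 cKO minus wild type had 3 higher and 1 lower, with 25 and 19 at 1.5-fold, 0 and 0 at 3-fold, 2 lower with quantile or cyclic loess normalization, and 0 lower with the offset or the 75th percentile filter. No paired analysis was possible because each group has 1 array, and no array could be left out. Signal near the median limits C1ra, C4b, Cfb and Cd55 most.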
